A study of Homo sapiens with 6 samples.

Results

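Drug efflux genes were followed in 3 human thyroid cancer cell lines in which CRABP2 had been lowered or raised. The 9 genes were taken by name, as known drug efflux genes, with no threshold on a measured value. They are ABCB1, ABCC1, ABCC2, ABCC3, ABCC4, ABCC5, ABCC10, ABCG2 and MVP, out of 58884 gene identifiers in the deposited table, and all 9 were found there. The lines BHT-101 and 8505C come from anaplastic and FTC-133 from follicular thyroid carcinoma. In the knockdown lines, BHT-101 and FTC-133, cells received control siRNA (siControl) or siRNA against CRABP2 (siCRABP2), and 8505C cells received an empty vector or a vector that overexpresses CRABP2. RNA sequencing gave 1 library per condition, 6 in all, with nothing in the sources used here on separate cultures or on whether the 8505C cells were selected clones or pools. CRABP2 carries retinoic acid to its nuclear receptors, and the comparison within each line asks what follows in expression when its level is moved.

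The first 8 genes encode members of the ATP-binding cassette (ABC) family. These membrane pumps use ATP to move drugs, drug conjugates and natural metabolites out of the cell, and in cancer they are known for resistance to several drugs at once. MVP encodes the major vault protein, the main component of a large cytoplasmic ribonucleoprotein particle, which has been linked to drug resistance although it is not itself a pump.

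Values are FPKM, read fragments scaled to exon length and library size, as deposited by the authors, so levels can be compared between genes per length. Whole read numbers were recovered for all 9 genes. Read totals ran from 22084110 to 27958622 per library. CRABP2 itself was 27.3 FPKM in the BHT-101 siControl library, against 11.4 FPKM under siCRABP2. FTC-133 held 8.94 FPKM under siControl and 0.170 FPKM under siCRABP2. In 8505C the empty vector library held 0.607 FPKM, the CRABP2 vector library 38.0 FPKM. The thyroid follicular markers TG, TSHR, SLC5A5 and FOXE1 were under 1 FPKM in all 6 libraries. The thyroid transcription factor NKX2-1 was above 1 FPKM in FTC-133 and 8505C but not in BHT-101. The epithelial list had a summed level from 98.6 to 819 FPKM. Of its 6 markers, 6 reached 1 FPKM in BHT-101, 4 in FTC-133 and 3 in 8505C. The fibroblast list summed to 82.1 and 76.6 FPKM in BHT-101, 161 and 143 FPKM in FTC-133 and at most 0.998 FPKM in 8505C. Of 5 leukocyte markers 4 were under 1 FPKM in all 6 libraries, CD14 being the exception. Of 3 endothelial markers only 1, VWF, was under 1 FPKM in all 6. CDH5 was 1.99 FPKM (empty vector) and 2.46 FPKM (CRABP2 vector) in 8505C.

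The efflux genes set BHT-101 apart from the other 2 lines. The 8 ABC genes together held 85.8 FPKM (siControl) and 84.7 FPKM (siCRABP2) in BHT-101. In the other lines the sum was smaller, at 22.1 FPKM (siControl) and 14.8 FPKM (siCRABP2) for FTC-133 and at 23.0 FPKM (empty vector) and 16.2 FPKM (CRABP2 vector) for 8505C. ABCB1, ABCC2 and ABCC3 made up 70.2% and 69.6% of it in BHT-101, against 6.41% to 12.6% in the other 4 libraries, where ABCC1 was the most abundant of the 8. MVP exceeded each of the 8 in all 6 libraries.

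**Figure D1:**
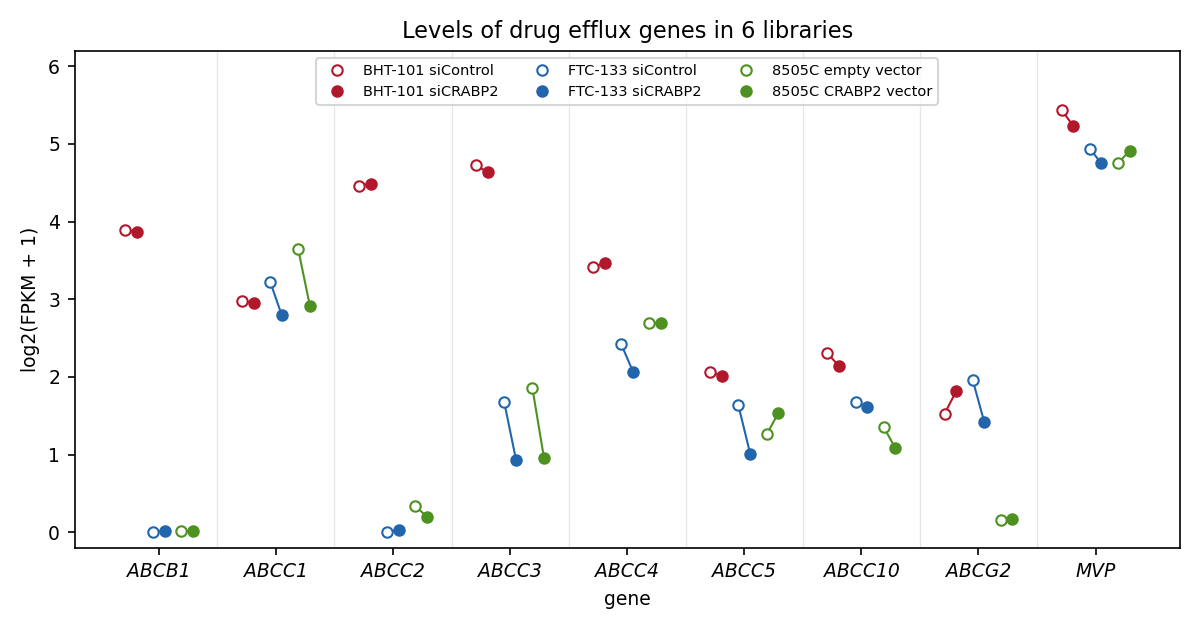
Levels of the 9 drug efflux genes on the log2(FPKM + 1) scale (y axis), 1 point per library, coloured by cell line, with open points for siControl or empty vector and filled points for siCRABP2 or CRABP2 vector. ABCB1 and ABCC2 lie near 0 in FTC-133 and 8505C, and MVP is the highest gene in all 6 libraries.

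ABCB1 (ENSG00000085563, GRCh38 chromosome 7, 87503633 to 87713323, minus strand) encodes P-glycoprotein, which exports bulky hydrophobic drugs such as taxanes and anthracyclines. The BHT-101 siControl library held 13.8 FPKM (2240 reads), and the siCRABP2 library 13.6 FPKM (1766 reads). FTC-133 gave 0 reads (siControl) and 2 reads (siCRABP2), and 8505C gave 1 read (empty vector) and 2 reads (CRABP2 vector). Only the BHT-101 libraries therefore held ABCB1 above a few reads. Taking 3 reads (0.0208 FPKM) as the upper limit of a count of 0, the level in the BHT-101 siControl library was at least 663-fold higher than in the FTC-133 siControl library.

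ABCC2 (ENSG00000023839, chromosome 10, 99782640 to 99852594, plus strand) encodes MRP2, which sends glutathione and glucuronide conjugates across the apical membrane. Its pattern across lines was alike. BHT-101 held 21.0 FPKM (4610 reads) under siControl, against 21.5 FPKM (3757 reads) under siCRABP2. FTC-133 had 0 reads with siControl and 5 with siCRABP2, and 8505C had 47 reads (0.262 FPKM) for the empty vector, against 26 (0.150 FPKM) for the CRABP2 vector. Against the same 3-read limit (0.0154 FPKM), BHT-101 siControl was at least 1364-fold higher than FTC-133 siControl.

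The bases just before the annotated starts of these 2 genes and of MVP are shown because ABCB1 and ABCC2 were near absent in 2 lines while MVP was abundant in all 3. They are RefSeq sequences on GRCh38.p14, read 5′ to 3′ on the gene's strand, and end at the base before the start. Capitals mark matches to the motifs searched on both strands, which do not overlap one another in the windows shown. They were the box with the letters CCAAT, the GC box with the letters GGGCGG, the TATA box with the letters TATAAA, and the core of the antioxidant response element, TGACNNNGC. The E-box with the letters CACGTG and the nuclear receptor half-site with the letters AGGTCA were searched as well. In ABCB1 the 250 bases before the outer start, chr7:87713296-87713545, held no match. The window before the inner start held 2 CCAAT matches, beginning 238 and 79 bases before it, and the 25 bases around the nearer one, chr7:87600949-87600973, are given. The windows of ABCC2, chr10:99782390-99782639, and MVP, chr16:29820144-29820393, follow.
ABCB1 outer start: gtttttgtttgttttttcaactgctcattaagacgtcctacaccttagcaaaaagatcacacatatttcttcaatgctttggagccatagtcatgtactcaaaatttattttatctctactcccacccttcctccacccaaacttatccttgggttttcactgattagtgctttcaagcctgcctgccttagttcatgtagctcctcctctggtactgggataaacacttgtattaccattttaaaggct
ABCB1 inner start: ggtgaggctgATTGGctgggcagga
ABCC2: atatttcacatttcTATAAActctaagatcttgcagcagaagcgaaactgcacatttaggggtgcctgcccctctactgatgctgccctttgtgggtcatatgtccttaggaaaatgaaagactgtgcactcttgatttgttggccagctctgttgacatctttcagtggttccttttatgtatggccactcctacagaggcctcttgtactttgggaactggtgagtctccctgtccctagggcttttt
MVP: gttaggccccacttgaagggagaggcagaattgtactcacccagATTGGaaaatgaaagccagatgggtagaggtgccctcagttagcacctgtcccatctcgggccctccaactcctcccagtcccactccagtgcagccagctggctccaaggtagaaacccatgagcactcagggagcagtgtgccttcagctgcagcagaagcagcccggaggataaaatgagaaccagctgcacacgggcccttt
ABCC2 held 1 TATAAA match, 236 bases before the start, and this MVP window, at the outermost of 3 MVP starts in the table, 1 CCAAT match in reverse orientation, 206 bases before it. Of the other 2 MVP windows 1 held an AGGTCA match, 196 bases before its start, and the other held none. Of all 35116 windows of this length, 32% held CCAAT, 42.6% GGGCGG, 10.7% TATAAA, 10.9% TGACNNNGC, 6.34% CACGTG and 12.1% AGGTCA. GC content was 39.2% at the outer and 55.6% at the inner ABCB1 start, 45.6% for ABCC2 and 56.8% for MVP, against a median of 58% over all windows. The expression values do not say which start was used, and a match describes letters only. The table held windows for 7 of the 9 genes.

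ABCC3 (ENSG00000108846, chromosome 17, 50634777 to 50692252, plus strand) encodes MRP3, a basolateral pump of glucuronides and bile salts. It was the most abundant ABC gene of the set in BHT-101, at 25.4 FPKM (6834 reads) under siControl and 23.8 FPKM (5122 reads) under siCRABP2. The FTC-133 libraries held 2.19 FPKM (522 reads, siControl) and 0.914 FPKM (239 reads, siCRABP2). Those of 8505C held 2.63 FPKM (577 reads, empty vector) and 0.932 FPKM (198 reads, CRABP2 vector). Both BHT-101 libraries were thus far above the rest, and the FTC-133 and 8505C libraries overlapped.

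ABCC1 (ENSG00000103222, chromosome 16, 15949577 to 16143074, plus strand) encodes MRP1, which exports glutathione conjugates and several anticancer drugs. It was 6.87 and 6.74 FPKM in BHT-101, 8.38 and 5.93 FPKM in FTC-133, and 11.5 and 6.53 FPKM in 8505C, control library first. The 3 lines overlapped, which held for no other gene of the set.

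ABCC4 (ENSG00000125257, chromosome 13, 95019829 to 95301475, minus strand) encodes MRP4, a pump of cyclic nucleotides and prostaglandins. It was 9.71 and 10.03 FPKM in BHT-101, 4.35 and 3.19 FPKM in FTC-133, and 5.48 and 5.46 FPKM in 8505C. Here no 2 lines overlapped, in the order BHT-101, 8505C, FTC-133. ABCC5 (ENSG00000114770, chromosome 3, 183919934 to 184018015, minus strand) encodes MRP5, which carries cyclic nucleotides and nucleotide analogues. It was 3.19 and 3.05 FPKM in BHT-101, 2.10 and 1.02 FPKM in FTC-133, and 1.39 and 1.89 FPKM in 8505C. BHT-101 lay above the other 2 lines, which overlapped. ABCC10 (ENSG00000124574, chromosome 6, 43427366 to 43450430, plus strand) encodes MRP7, which can export taxanes. It was 3.94 and 3.40 FPKM in BHT-101, 2.19 and 2.07 FPKM in FTC-133, and 1.56 and 1.12 FPKM in 8505C, again with no overlap between lines.

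ABCG2 (ENSG00000118777, chromosome 4, 88090264 to 88231322, minus strand) encodes the breast cancer resistance protein, a half-transporter that works as a dimer. Like ABCC10 it was lowest in 8505C, by a wider margin. There it had 15 reads in either library (0.117 and 0.121 FPKM). BHT-101 had 1.88 FPKM (294 reads, siControl) and 2.52 FPKM (316 reads, siCRABP2), and FTC-133 had 2.91 FPKM (404 reads) and 1.67 FPKM (254 reads). BHT-101 and FTC-133 overlapped, and both were above 8505C.

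MVP (ENSG00000013364, chromosome 16, 29820394 to 29848039, plus strand) was 42.4 and 36.5 FPKM in BHT-101, 29.7 and 25.9 FPKM in FTC-133, and 25.9 and 29.1 FPKM in 8505C. FTC-133 and 8505C overlapped below BHT-101. Its level stood at percentile 82.1 to 90.5 of the protein-coding genes with at least 1 FPKM in the same library.

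The sources used here do not give the strand setting of the counting, so overlapping genes matter. RUNDC3B, on the opposite strand of ABCB1, was 0.547 FPKM or less in all 6 libraries. DLK2 opposite ABCC10 was at most 0.960 FPKM, and the antisense gene AC009133.1 opposite MVP at most 0.655 FPKM.

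**Figure D2:**
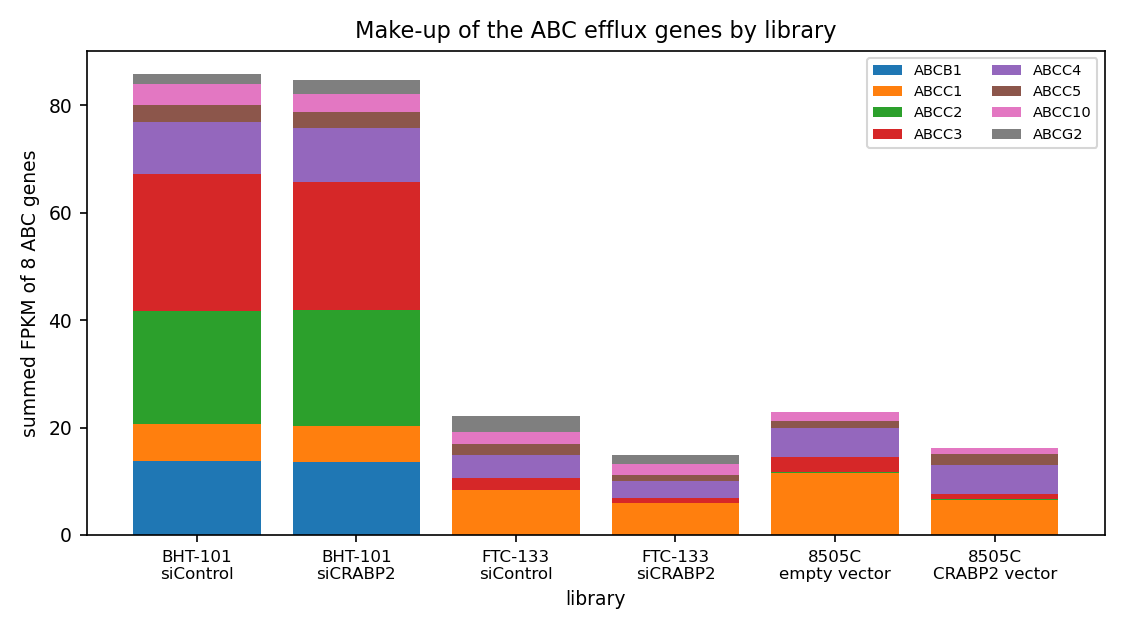
Summed FPKM of the 8 ABC efflux genes (y axis) in each of the 6 libraries, stacked by gene. The BHT-101 bars reach 85.8 and 84.7 FPKM, with ABCB1, ABCC2 and ABCC3 as the parts that are small or missing in FTC-133 and 8505C.

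Of the 9 genes 7 were among the 11628 with at least 1 FPKM in 3 or more libraries, while ABCB1 and ABCC2 reached that level in the BHT-101 libraries alone. Both BHT-101 libraries lay above both FTC-133 libraries for 5 of the 7, all but ABCC1 and ABCG2, and above both 8505C libraries for 6 of the 7, all but ABCC1. Of the 11628 genes, 28.9% and 42.5% did so. FTC-133 and 8505C did not overlap for 3 of the 7 (ABCC4, ABCC10 and ABCG2), where 78.6% of those genes did not. The filter let in ABCC3 only with the BHT-101 libraries and ABCG2 only with those of BHT-101 and FTC-133, where each is high. Their part in these counts is therefore a description.

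Differences between lines were tested with limma on log2(FPKM + 1), with the CRABP2 arm as a covariate and Benjamini-Hochberg adjustment over the same 11628 genes. The spread comes from the 2 libraries of a line, which differ in transfection and may share a culture, so the p-values describe these libraries and leave 2 residual degrees of freedom. ABCB1 and ABCC2 were thus not tested. Of the 7 tested, 5 were lower in FTC-133 than in BHT-101 and 0 higher, where 41.9% of all genes tested differed and 15.2% were lower. In 8505C against BHT-101, 6 of 7 were lower and 0 higher, where 61.2% of all genes differed and 30.7% were lower. Between 8505C and FTC-133 1 of 7 differed, lower in 8505C, where 58% of all genes differed and 33.7% were lower. ABCC3 is counted in both contrasts with BHT-101, and ABCG2 in both contrasts with 8505C. Each passed the filter only with libraries of lines where it is high, so its part in these counts is a description.

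On this scale ABCC3 had the largest differences from BHT-101 among the 7, -3.37 (SE 0.35, adjusted p = 5.11e-04) for FTC-133 minus BHT-101 and -3.27 (SE 0.35, adjusted p = 2.92e-04) for 8505C minus BHT-101 by limma. ABCC3 was among the genes tested only with the help of the BHT-101 libraries, where it is high. Its values therefore describe the size of a difference that the filter favoured. ABCC4 was lower by -1.20 (SE 0.18, adjusted p = 0.00244) in FTC-133 and -0.75 (SE 0.18, adjusted p = 0.00989) in 8505C, and ABCC10 by -0.58 (adjusted p = 0.0455) and -1.002 (adjusted p = 0.00335). ABCC5 differed by -0.72 (adjusted p = 0.0262) and -0.65 (adjusted p = 0.0268), and MVP by -0.49 (adjusted p = 0.047) and -0.50 (adjusted p = 0.0304). ABCG2 was lower in 8505C than in BHT-101 by -1.51 (SE 0.24, adjusted p = 0.00145) and than in FTC-133 by -1.53 (SE 0.24, adjusted p = 0.00148). The added 1 shrinks these values, which were -3.38 and -3.39 at a pseudocount of 0.1, and the mean FPKM was 18.5-fold and 19.2-fold lower in 8505C. ABCG2 was among the genes tested only through the BHT-101 and FTC-133 libraries, where it is high, so these values describe the size of a difference that the filter favoured. ABCC1 passed in none of the 3 contrasts, with differences of 0.05, 0.32 and 0.27 and an SE of 0.27 for each.

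The calls near the threshold depended on the setting. For FTC-133 minus BHT-101, MVP had an adjusted p = 0.0502 without a variance trend and 0.0551 with all genes above 0. ABCC10 had 0.0644 with a pseudocount of 0.1, and under the filter of all genes above 0 ABCC5 and ABCC10 had adjusted p-values of 0.0886 and 0.108. For 8505C minus BHT-101, ABCC5 had an adjusted p = 0.0981 under that filter and MVP 0.0667 after quantile normalization. With a filter of at least 1 FPKM in 2 or more libraries, chosen after the values were seen so that genes of a single line could enter, ABCB1 was -3.87 (SE 0.15, adjusted p = 3.9e-05) in FTC-133 and -3.86 (adjusted p = 3.4e-05) in 8505C against BHT-101. ABCC2 was -4.46 (SE 0.16, adjusted p = 3.6e-05) and -4.21 (adjusted p = 3.2e-05). Both genes entered only because of their BHT-101 level, so these values are a description of its size.

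**Figure D3:**
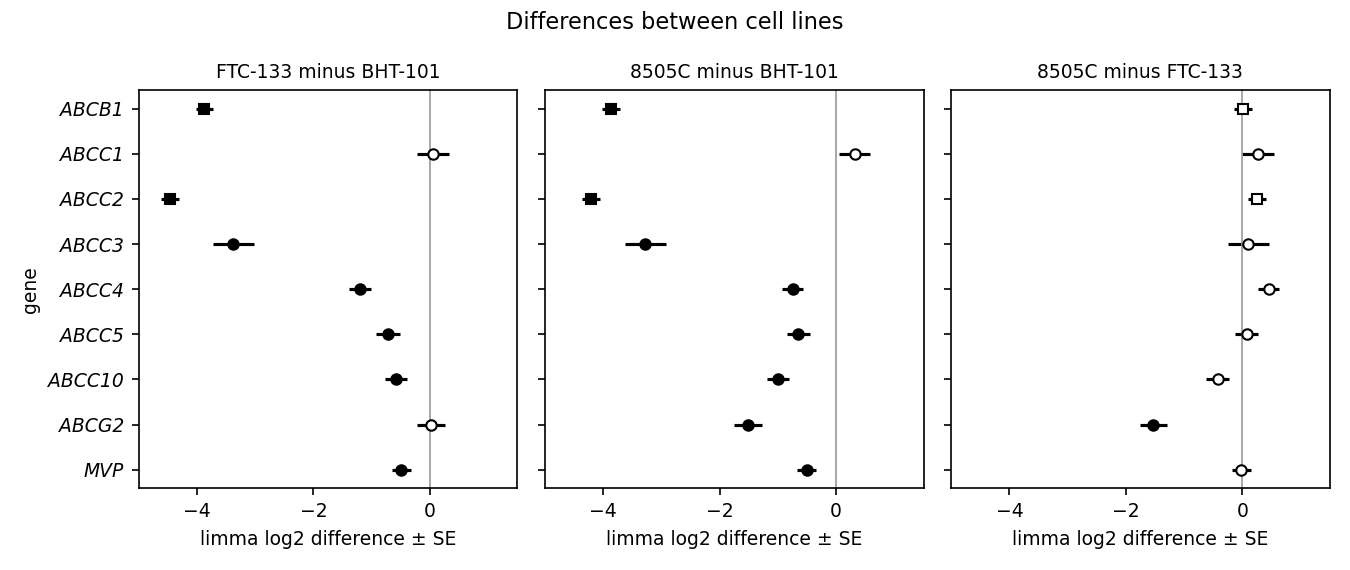
Differences between cell lines by limma on the log2(FPKM + 1) scale (x axis, ± SE) for each gene (y axis), with filled symbols for an adjusted p under 0.05. Squares mark ABCB1 and ABCC2, which were fitted under the wider filter, and ABCC3 has the largest differences from BHT-101 among the circles.

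In BHT-101 the set lay close to its control level under siCRABP2. CRABP2 itself was at 41.8% of its control there, against 1.90% in FTC-133, and the part of this was not tested. All 9 genes were measured (at least 1 FPKM in 1 or both libraries), and 0 reached a difference of 1 between the libraries on log2(FPKM + 1), where 1.13% of 12055 measured genes did. Their median difference was -0.02, against 0.01 over all measured genes. The largest was ABCG2 at 0.29, and its depth-scaled log2 read ratio of 0.43 had a 95% exact counting interval from 0.19 to 0.66. MVP followed at -0.21 and ABCC10 at -0.17, with read ratios of -0.21 (-0.27 to -0.16) and -0.21 (-0.36 to -0.06). ABCB1 at -0.02 and ABCC2 at 0.03 had intervals that included 0, from -0.11 to 0.07 and from -0.03 to 0.09. Such intervals cover counting error only, and 1 library per condition leaves these differences without replicates and so without a test.

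In FTC-133 with siCRABP2 all 7 measured genes were below 0, and 6 of 7 after quantile normalization, which put ABCC10 at 0.02. Among all 12832 measured genes 53.9% were. The median of the 7 was -0.44 and that of all measured genes -0.04. ABCC3 was 2.39-fold lower in FPKM (read ratio -1.26, interval -1.49 to -1.03) and ABCC5 2.07-fold lower (-1.05, interval -1.25 to -0.85). ABCG2 was 1.74-fold lower (-0.80, interval -1.03 to -0.57), ABCC1 1.41-fold (-0.50, interval -0.61 to -0.39) and ABCC4 1.36-fold (-0.45, interval -0.59 to -0.31). MVP, at 1.15-fold lower, and ABCC10, at 1.06-fold lower, stayed nearest to their controls.

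Of the 7, 0 reached the size rule of 1, where 4.71% of measured genes did, and the largest were ABCC3 at -0.74 and ABCC5 at -0.62. The added 1 shrinks differences of genes at 1 to 3 FPKM. By the plain FPKM ratio, added after the values were seen, ABCC3 and ABCC5 were at least 2-fold lower, where 6.31% of measured genes were. At a pseudocount of 0.1 or on TPM, 1 of the 7, ABCC3, reached a difference of 1, where 5.59% and 4.86% of measured genes lay at least that far below 0.

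In 8505C the CRABP2 vector library differed most from the empty vector library in ABCC3 and ABCC1, both lower. ABCC3 was 2.82-fold lower in FPKM (read ratio -1.49, interval -1.73 to -1.26) and ABCC1 1.76-fold lower (-0.82, interval -0.93 to -0.71). ABCC10 was 1.39-fold lower (-0.48, interval -0.74 to -0.21), from 288 to 200 reads. ABCC5 lay the other way at a read ratio of 0.44 (interval 0.24 to 0.64), as did MVP at 0.17 (interval 0.10 to 0.23). ABCC4, at -0.01 (interval -0.13 to 0.12), hardly differed between the libraries.

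Of the 6 measured genes in 8505C 4 were below 0, where 47.2% of 11731 measured genes were, and the median of the 6 was -0.14 against 0.02. By the size rule 0 of 6 passed, where 3.71% of measured genes did, with ABCC3 at -0.91 and ABCC1 at -0.73. ABCC3 passed under a pseudocount of 0.5 (2.57% of measured genes at least that far below 0), a pseudocount of 0.1 (3.55%), TPM (3.22%) and the plain FPKM ratio (3.89%).

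**Figure D4:**
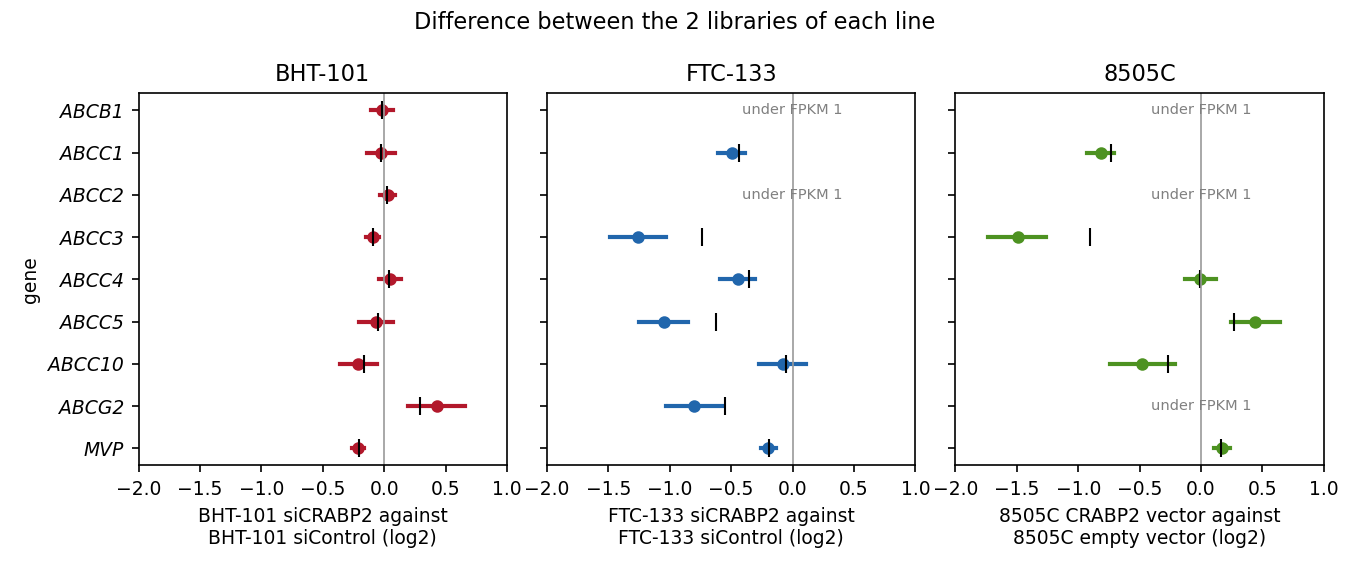
Difference between the 2 libraries of each line for each gene (y axis). Coloured points and bars are the depth-scaled log2 read ratio with its 95% exact counting interval, and black ticks the difference on the log2(FPKM + 1) scale (x axis for both). ABCC3 lies farthest to the left in FTC-133 and in 8505C, and genes under 1 FPKM in both libraries of a line are marked as such.

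The annotated exons of each efflux gene, merged over all its transcripts, cover 5044 to 11441 bases, which is not the length of a single transcript. Measured protein-coding genes of that length range had a median of -0.06 in FTC-133, with 56.8% below 0, against -0.04 and 53.8% over all measured protein-coding genes. In 8505C their median was -0.04, with 55.5% below 0, against 0.02 and 47.4% over all measured protein-coding genes. Cell type markers, among them epithelial and thyroid ones, differed too. Of 5 fibroblast markers 3 were measured in FTC-133, 2 below 0 and 1 above 0 under siCRABP2, with a median of -0.69. LUM, a matrix proteoglycan with the largest difference of that list, was 13.2 and 6.53 FPKM. Of 6 epithelial markers 3 were measured in 8505C, all above 0 with a median of 0.72, and KRT7, a simple-epithelium keratin, was 57.4 and 108 FPKM. Of 8 thyroid follicular markers 2 were measured in FTC-133, 1 below 0 and 1 above 0, with a median of -0.37. The one below 0, the thyroid factor NKX2-1, was 22.6 and 12.4 FPKM there. The part of these markers and of length in the differences of the efflux genes was not tested.

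**Figure D5:**
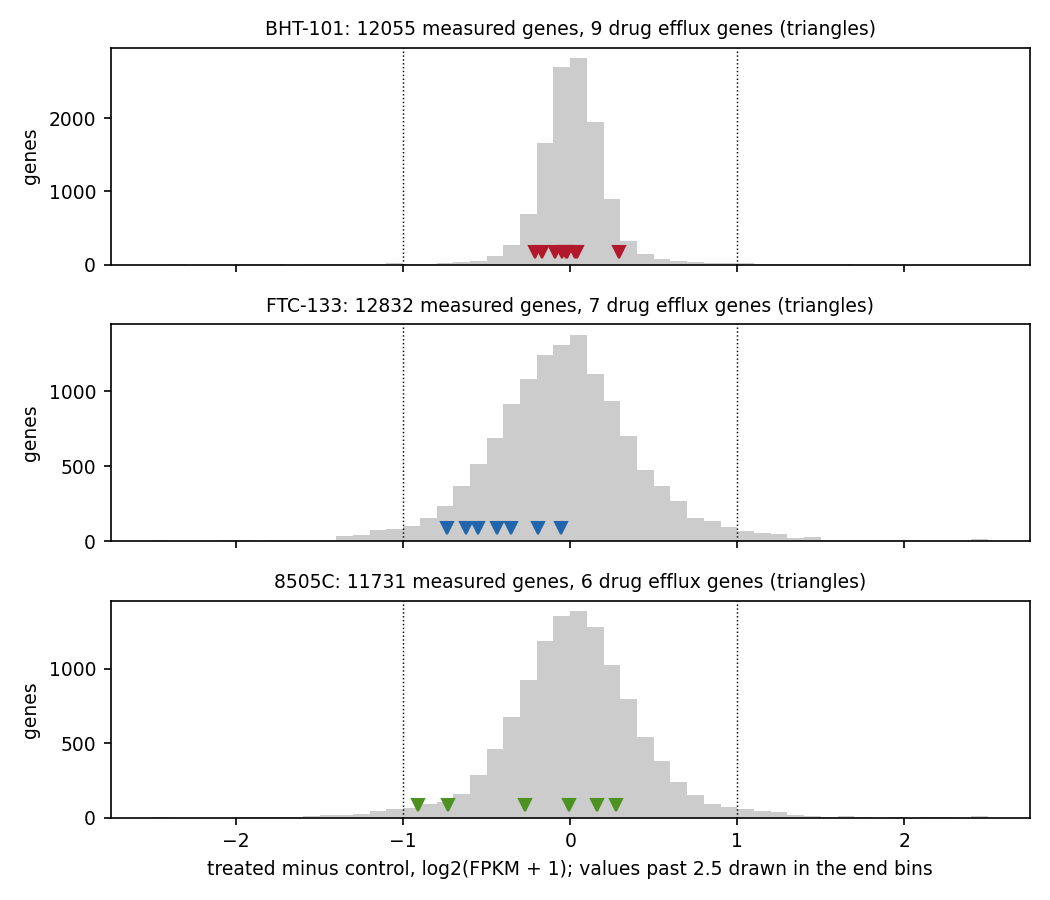
Difference between the treated and the control library on the log2(FPKM + 1) scale (x axis) for all measured genes of each line (grey, number of genes on the y axis) and for the drug efflux genes (triangles), with dotted lines at a difference of 1. All 7 triangles of FTC-133 lie below 0 (6 after quantile normalization) and none of the triangles in any line passes a dotted line.

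Across lines, 6 genes were measured in all 3. ABCC5 and MVP followed CRABP2 in each line, lower with siCRABP2 in BHT-101 and FTC-133 and higher with the CRABP2 vector in 8505C. For ABCC5 in BHT-101 the read ratio was -0.07, with a counting interval that included 0 (-0.20 to 0.07). That makes 2 of 6, where 11.7% of 9699 genes measured in 3 lines had this pattern. ABCC1, ABCC3, ABCC4 and ABCC10 were below 0 in both FTC-133 with siCRABP2 and 8505C with the CRABP2 vector, although CRABP2 was lowered in one and raised in the other. That makes 4 of 6, where 27.3% of genes had this pattern, and for ABCC4 in 8505C and ABCC10 in FTC-133 the counting interval included 0.

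Tested over the 4 siRNA libraries by limma, blocking on the cell line, 0 of the 9 genes passed at an adjusted p under 0.05, and 0 at an unadjusted p under 0.05. Over all 12953 genes 0% were called, while 314 were higher and 225 lower at an unadjusted p under 0.05, and the fit had 1 residual degree of freedom. ABCC3 had the largest estimate, -0.41 (SE 0.21, lower in 2 of 2 lines, adjusted p = 0.869), followed by ABCC5 at -0.34 (SE 0.20, lower in 2 of 2 lines, adjusted p = 0.869). In the fit over all 6 libraries, lower CRABP2 arm minus higher arm, 0 of 7 passed adjusted or unadjusted, and 0% of 11628 genes were called (193 higher and 179 lower at an unadjusted p under 0.05). ABCC5 was -0.32 (SE 0.16) and MVP -0.19 (SE 0.13), both lower in the lower arm of 3 of 3 lines, each with an adjusted p = 0.999. These misses do not show that the genes did not respond.

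Among 40 other ABC transporter genes 18 were measured in BHT-101, with 9 below 0 and a median of 0.00. In FTC-133 15 of 17 measured were below 0, with a median of -0.34, where 53.9% of all measured genes were. Of protein-coding genes in the exon length range of the efflux genes 56.8% were below 0. In 8505C 13 of 18 other ABC genes were below 0, with a median of -0.26, where those shares were 47.2% and 55.5%. By the size rule 0 of them differed in any line, where 1.13% (BHT-101), 4.71% (FTC-133) and 3.71% (8505C) of all measured genes did. The largest difference ran the other way. TAP1, which loads peptides for antigen presentation, stood at 11.8 FPKM (siControl) and 20.9 FPKM (siCRABP2) in FTC-133 (0.78). Between lines, 2 of 17 tested were higher and 2 lower in FTC-133 than in BHT-101, where 41.9% of all genes differed. In 8505C against BHT-101, 2 were higher and 5 lower, where 61.2% of all genes differed.

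The ABC gene with the most similar profile was sought by Pearson correlation of log2(FPKM + 1) over the 6 libraries. Libraries of a line share that line's level, so these correlations describe mainly the 3 lines. ABCB1 was most like ABCB4, a phospholipid transporter and close paralog (0.9999), which was 2.79 and 2.76 FPKM in BHT-101 and at most 0.0333 FPKM elsewhere. Reads between the paralogs are uncertain. ABCC2 was most like ABCB1 (0.999) and ABCC3 most like ABCC2 (0.979). ABCC4 was most like ABCA3, a lipid transporter of lamellar bodies (0.962), and ABCC5 most like ABCB10 of the mitochondrial inner membrane (0.923). ABCG2 was most like ABCB8 (0.983), MVP most like ABCC5 (0.939), and ABCC1 had the weakest match, ABCA8 (0.724).

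Genes that feed or regulate these pumps showed few large differences. Of 19 drug uptake carriers 9 were measured in 8505C, and 2 of them were at least 1 lower with the CRABP2 vector, where 1.86% of measured genes were. These were SLC22A4, a carnitine and ergothioneine carrier (13.3 to 4.41 FPKM, -1.41), and SLCO4A1, an organic anion carrier (17.3 to 7.42 FPKM, -1.12). With siCRABP2 SLCO4A1 differed by 0.49 (BHT-101) and 0.67 (FTC-133), and was 0.76 (SE 0.16, adjusted p = 0.999 by limma) higher in the lower CRABP2 arm. In FTC-133 1 of 27 measured regulators reached the size rule. It was the immediate early factor EGR1, from 27.7 to 3.31 FPKM (-2.74), where 2.35% of measured genes were at least 1 lower.

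In the other lists 0 genes reached a difference of 1 in any line, where 1.13% (BHT-101), 4.71% (FTC-133) and 3.71% (8505C) of all measured genes did. Among conjugation and glutathione genes MGST1, a membrane glutathione transferase, had the largest difference, from 17.4 to 33.3 FPKM in FTC-133 (0.90). Among trafficking partners it was CAV1, the caveolar coat protein, from 24.3 to 47.9 FPKM in 8505C (0.95), and among other efflux carriers the copper pump ATP7A, from 4.08 to 2.69 FPKM in 8505C (-0.46). The vault partners of MVP were also read. TEP1 was 3.20 and 3.55 FPKM in BHT-101, 2.20 and 1.76 FPKM in FTC-133 and 3.70 and 2.14 FPKM in 8505C, and PARP4 was 28.5 and 27.4, 22.1 and 16.3, and 21.2 and 20.3 FPKM. VTRNA1-1, a short vault RNA, had the largest difference of that list (-0.75 in BHT-101), with a counting interval of the read ratio from -7.30 to 1.66. Conjugation genes differed between lines, with 12 of 16 tested lower in 8505C than in BHT-101 and 2 higher, where 30.7% of all genes tested were lower. In FTC-133 against BHT-101 the same list had 7 higher and 1 lower. Of all 11628 genes tested there, 3105 were higher, while 15.2% were lower and 41.9% differed. GSTP1 was 106 and 112.5 FPKM in BHT-101, 182 and 168 FPKM in FTC-133 and 42.6 and 56.7 FPKM in 8505C.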

How the data were processed

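The authors deposited FPKM values for 6 libraries of total RNA. FastQC, Trimmomatic 0.38 and featureCounts 2.0.0 on GRCh38 are named per the submitters' processing notes. No source used here gives the aligner, annotation release or strand setting.

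Gene names, positions and exon lengths came from GENCODE release 29, which named 58611 of 58884 identifiers. FPKM times exon length fell on whole multiples of 1 step per library, which gave the read totals. At the release 29 length 75.2% of 33700 genes above 0 were whole within 0.001 reads, as were 4 of the 9 efflux genes, and for the other 5 the nearest length that gave whole reads was used. Intervals are exact (Clopper-Pearson) at 95%.

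Differences are on log2(FPKM + 1). A gene was measured in a line at 1 FPKM or more in 1 or both libraries and called by size at a difference of 1. Models were fitted in limma 3.58.1 under R 4.3.3, with a trend of variance on mean. The script was tested on simulated data. The pairing of libraries by cell line comes from the labels. The efflux genes and the other lists (13 lists with the efflux genes, 167 of 168 entries matched) were chosen with earlier results of these data known. Named genes were all 9 efflux genes, list genes called by size (up to 4 per list and line) or otherwise the largest difference of a list, and the most similar ABC gene, which for ABCC10 is not reported here. SLCO4A1 in other lines, TEP1, PARP4 and GSTP1 were named after their values were seen. Alternatives were pseudocounts of 0.1 and 0.5, other filters, TPM, quantile and median-ratio scaling, no variance trend, no block or covariate, and leaving out a line.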

Additional observations from a re-analysis of the deposited data

Results flagged for a closer look

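ABCG2 differed in opposite directions with siCRABP2 in the 2 knockdown lines, in BHT-101 by 0.29 on the log2(FPKM + 1) scale and by -0.55 for FTC-133. Its counting interval of the read ratio excluded 0 in both, from 0.19 to 0.66 and from -1.03 to -0.57. With 1 library per condition the difference between the lines was not tested.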

How the results depend on the processing

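Within BHT-101 the count of efflux genes called by size was 0 under each of the 8 alternatives. In FTC-133 it was 1 (ABCC3) instead of 0 with a pseudocount of 0.1 and on TPM, and 2 (ABCC3 and ABCC5) without a pseudocount. In 8505C it was 1 (ABCC3) with a pseudocount of 0.5 or 0.1, on TPM and without a pseudocount. Low levels make ABCC3 and ABCC5 depend on the pseudocount by its construction.

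Over lines the count of efflux genes called stayed at 0 in the 4-library and 6-library fits under every alternative run, with no replicate block (the pairing by cell line dropped) giving 0 in both and leave-one-out by line giving 0 each time. Signs of small values turned. Within lines, ABCB1 (0.0071) and ABCC1 (0.00048) in BHT-101 turned on TPM and ABCC10 (0.020) in FTC-133 after quantile normalization. In the fits, after quantile normalization ABCB1 was -0.013 over the siRNA libraries, ABCC1 -0.093 and ABCG2 -0.13 for FTC-133 minus BHT-101, and MVP 0.20 for 8505C minus FTC-133. Leaving out a line from the 6-library fit gave ranges that crossed 0, for ABCC1 from -0.23 (without 8505C) to 0.36 (without FTC-133), for ABCC3 from -0.41 to 0.41 in the same order, and for ABCC10 from -0.11 (without 8505C) to 0.11 (without BHT-101). ABCC4 ran from -0.17 and ABCG2 from -0.28 (both without BHT-101) to 0.024 and 0.14 (both without FTC-133). The cause was not tested. Of 126 alternative values for contrasts between lines 114 kept their sign and their side of the threshold. ABCC4 in 8505C minus FTC-133 passed after quantile normalization (0.62, adjusted p = 0.0202) and without the covariate (0.45, adjusted p = 0.0489). Depth limits ABCB1 and ABCC2 in FTC-133 and 8505C and ABCG2 in 8505C, where at most 47 reads stood behind a value.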
